A study of Rattus norvegicus with 9 samples.

Results

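Apolipoproteins of the Apoe gene cluster and a set of macrophage genes of cholesterol export and lipid uptake were followed across 3 groups of rat tibia. The set has 10 members, taken by gene symbol from the 23768 genes of the raw count table, and all 10 passed the filter on low counts. Apoc4, with 1 count over the Model libraries, passed it only through its GelMA and PMLGH libraries. They are Apoe, Apoc1 and Apoc4, the exporters Abca1 and Abcg1, the nuclear receptor Nr1h3, the receptors Trem2 and Msr1, and Gpnmb and Lgals3. The samples were tibiae of male Sprague Dawley rats in the groups Model, GelMA and PMLGH, with 3 libraries each. By its title the work concerns bone healing in diabetes with a LOX-imitating peptide, LOX being lysyl oxidase, which cross-links collagen, and GelMA is the usual name of gelatin methacryloyl, a gelatin hydrogel. The labels give no age, time of sampling or content of PMLGH, do not say what the Model group received, and do not say whether each library is 1 animal, so the tests measure the spread between libraries, which may be technical. The members were chosen by their measured levels and fold changes in all 3 comparisons. Their differences are therefore given as a description, and nothing is read from how many of them passed.

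Macrophages take up lipoproteins and the lipids of dead cells and cannot break down the sterol ring. They load cholesterol onto outside acceptors through ABC transporters, Abca1 mainly onto lipid-poor apolipoproteins and Abcg1 onto mature lipoprotein particles. Oxidised cholesterol activates the LXR nuclear receptors, which switch on the genes of both transporters and, in mouse and human macrophages, Apoe with its neighbours through shared enhancers downstream of them. Trem2, which senses lipids, and Gpnmb mark the macrophages that carry much lipid in fat tissue, arteries and brain of mice and humans. In bone, Gpnmb is also made by osteoblasts and osteoclasts.

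Promoter sequences are shown for the members whose patterns over the groups differ most, to place the letters read by known factors beside the values. They come from RefSeq (build GRCr8), which the table of promoters gives as 250 bases before to 50 bases after each annotated start, and 7 of the 10 members matched by symbol with 10 starts. Each is written 5′ to 3′ on the strand of its gene. The stretch of Abca1 is chr5:72596424-72596723 (minus strand), and its capitals mark the GC box GGGCGG, the E-box CACGTG and the TATA box TATAAA. The stretch of Gpnmb is chr4:79340878-79341177 (plus strand), and its capitals mark TGANTCA, the site of AP-1 factors, and TCACATGA, a site of the MiT family (Mitf, Tfeb, Tfec, Tfe3). For Apoe, with 3 annotated starts, the middle one is shown, chr1:88484650-88484949 (minus strand), and its capitals mark the GC box GGGCGG on either strand. The windows of the starts differ: the one shown and the one that overlaps it hold 2 GC boxes each, and the remaining one, chr1:88485767-88486066, holds 0.
Abca1: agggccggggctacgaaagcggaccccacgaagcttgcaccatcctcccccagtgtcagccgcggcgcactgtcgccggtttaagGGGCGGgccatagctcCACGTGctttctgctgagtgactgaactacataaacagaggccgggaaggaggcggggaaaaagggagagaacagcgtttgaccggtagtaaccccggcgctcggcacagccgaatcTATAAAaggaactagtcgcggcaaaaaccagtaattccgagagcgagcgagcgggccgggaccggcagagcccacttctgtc
Gpnmb: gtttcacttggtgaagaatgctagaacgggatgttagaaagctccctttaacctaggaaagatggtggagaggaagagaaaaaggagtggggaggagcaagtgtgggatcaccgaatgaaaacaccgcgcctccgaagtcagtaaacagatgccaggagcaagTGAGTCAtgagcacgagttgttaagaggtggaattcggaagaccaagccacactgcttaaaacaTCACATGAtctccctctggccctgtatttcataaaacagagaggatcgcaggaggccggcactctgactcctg
Apoe: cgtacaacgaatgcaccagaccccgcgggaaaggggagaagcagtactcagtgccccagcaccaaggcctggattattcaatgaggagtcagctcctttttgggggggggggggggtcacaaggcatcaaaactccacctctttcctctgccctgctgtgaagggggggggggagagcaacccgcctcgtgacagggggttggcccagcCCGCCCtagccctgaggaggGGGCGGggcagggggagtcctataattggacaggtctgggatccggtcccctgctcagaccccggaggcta

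In Abca1 the GC box began at -165, the E-box at -149 and the TATA box at -32, counted from the annotated start, and 33.1%, 6.42% and 14.2% of the 33469 windows in the table held such letters. The direct repeat of AGGTCA with 4 bases between, the consensus of the LXR element, was in 2 windows (0.00598%), none of them a member's. Exact copies alone were sought. The LXR element known in the Abca1 promoter of mouse and human is an imperfect repeat, which this search cannot find. The promoter of Abca1 shown is thus not said to lack one. Its unmarked letters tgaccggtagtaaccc hold, on the other strand, 2 imperfect copies of AGGTCA with 4 bases between. In Gpnmb the AP-1 site began at -87 and the MiT site at -23, held by 7.33% and 1.16% of windows. The window of Trem2 also held an AP-1 match, at -3, and those of Apoc1 held the GC box. The single half-site AGGTCA, which the direct repeat contains, was in the windows of Apoc4 and Trem2 and in 16.2% of all. Both strands were searched, and the motifs were chosen after the sequences were seen. A match is a description and not a bound site.

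Total counts ran from 34571478 to 37166383 per library. Markers of bone (Col1a1, Bglap, Ibsp, Dmp1) were present in every group. Among Model libraries, replicate 2 was the most distant: its counts differed from those of replicates 1 and 5 by a chi-square of 33.0 and 27.7 per gene on average, where those of 1 and 5 differed by 15.7. In bulk tissue fewer cells of a type and less RNA per cell cannot be told apart. No batch is named in the labels.

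Apoe, the main apolipoprotein that macrophages secrete, was by far the most abundant of the apolipoproteins. Levels are given as CPM, the count relative to the scaled library total, in the order of replicates 1, 2 and 5 for Model and 2, 3 and 4 for GelMA and for PMLGH. Apoe was at 158, 177 and 163 CPM in Model. GelMA had 769, 706 and 828 CPM, and PMLGH had 1210, 1340 and 1193 CPM. Model was lowest and PMLGH highest, without overlap. Group means were 166 ± 9.85 CPM for Model (SD, n = 3), 767 ± 61.0 CPM for GelMA and 1248 ± 80.4 CPM for PMLGH. The log2 fold change ± SE was 2.91 ± 0.08 in PMLGH against Model, 2.21 ± 0.07 in GelMA against Model and 0.70 ± 0.07 in PMLGH against GelMA. Of the difference in CPM between PMLGH and Model, 55.6% was already there in GelMA.

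Apoc1, a small apolipoprotein that slows lipoprotein uptake and lipase action, stepped up in the same order from much lower counts. Its counts were 28, 7 and 15 in Model, 44, 39 and 78 in GelMA and 172, 192 and 171 in PMLGH. The groups did not overlap, and most of the difference lay between GelMA and PMLGH: 22.5% of the difference in CPM between PMLGH and Model was there in GelMA. Apoc1 had a log2 fold change of 3.30 ± 0.39 in PMLGH against Model, 1.59 ± 0.41 in GelMA against Model and 1.72 ± 0.35 in PMLGH against GelMA. The Model libraries spread widely, and without Model 1 and without Model 2 the PMLGH value was 3.91 and 2.89 and the GelMA value 2.19 and 1.18. It missed the threshold in GelMA against Model without GelMA 4 (1.21) or with only those 6 libraries fitted (1.56), and in PMLGH against GelMA without GelMA 2, GelMA 3 or PMLGH 3 (1.54 to 1.66).

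Apoc4, a minor apolipoprotein known from the liver, was at the edge of detection in Model. Its counts were 0, 1 and 0 in Model, 18, 18 and 27 in GelMA and 34, 49 and 52 in PMLGH. The ratio of scaled counts was 126 for PMLGH to Model, with a 95% counting interval of 22.2 to 5010, and 59.4 for GelMA to Model (10.3 to 2380). These intervals cover counting error only. PMLGH against GelMA had a log2 fold change of 1.08 ± 0.46, with no overlap between the libraries. The single Model count was in Model 2, and the fitted log2 fold changes of 6.54 and 5.46 against Model moved to 8.45 and 7.37 without that library.

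The cluster neighbour Apoc2, the cofactor of lipoprotein lipase, had 1 count in all 9 libraries, so the neighbours did not share a counted level. The counter and annotation are not known, so a count near 0 need not mean that the transcript was absent. Per length, in FPKM, Apoe made up 99.1% ± 0.56 of the sum of the 4 neighbours in Model (SD, n = 3). For GelMA the share was 99.3% ± 0.20, and for PMLGH 98.6% ± 0.07. Apoc1 made up 0.852% ± 0.58, 0.534% ± 0.16 and 1.09% ± 0.0095. Apoc4 made up 0.0150% ± 0.026, 0.210% ± 0.034 and 0.274% ± 0.060. The share of Apoc4 was higher in each GelMA and PMLGH library than in each Model library.

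**Figure D1:**
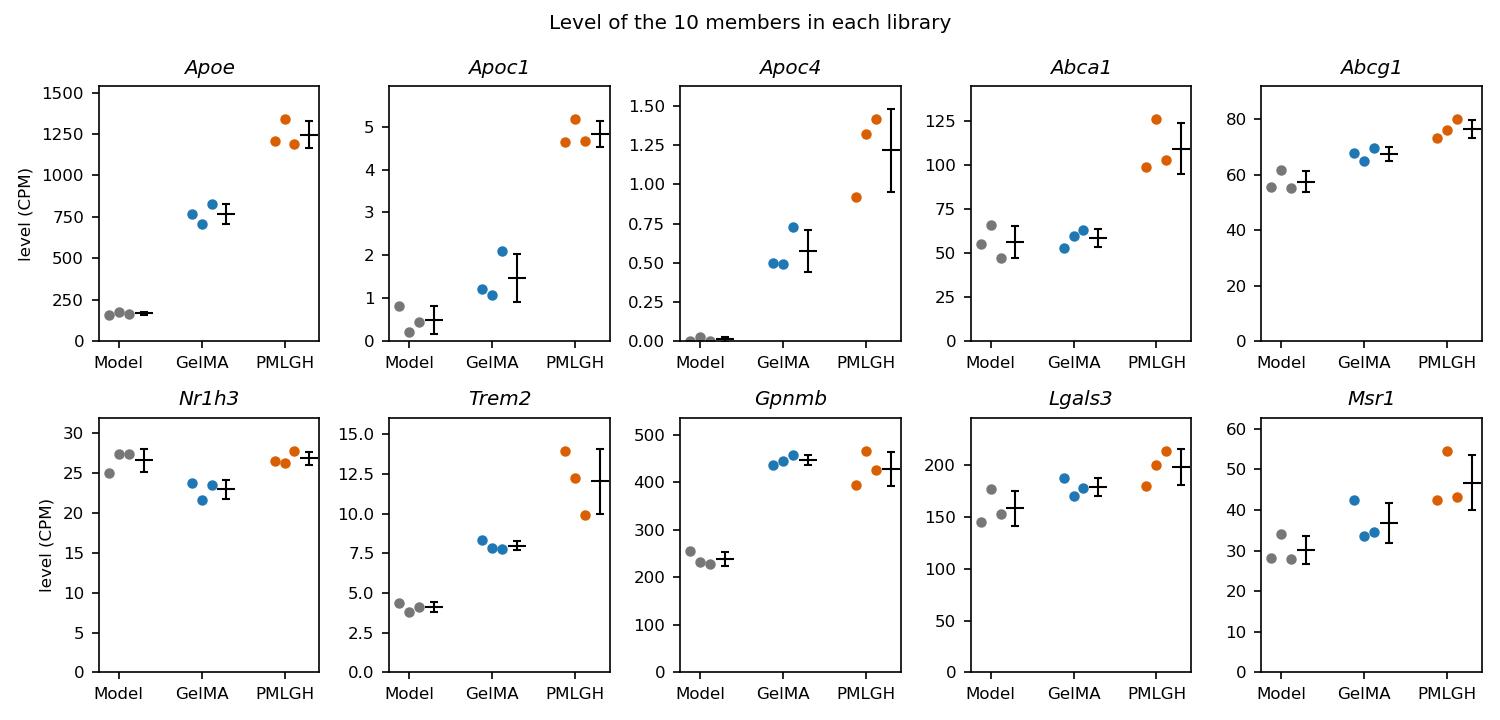
Level of each member in CPM (vertical axis from 0) in the 3 libraries of each group (points, replicates in the order 1, 2, 5 for Model and 2, 3, 4 for GelMA and PMLGH), with mean and SD (bar). Apoe, Apoc1, Apoc4 and Trem2 step up from Model to GelMA to PMLGH, Abca1 is high in PMLGH alone, Gpnmb is alike in GelMA and PMLGH, and Nr1h3 lies between 21.6 and 27.8 CPM throughout.

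Abca1, the exporter that hands cholesterol and phospholipid to lipid-poor apolipoproteins, had another pattern. Its level was 55.4, 65.9 and 47.4 CPM in Model, 52.7, 59.7 and 63.1 in GelMA and 98.9, 126 and 103 in PMLGH. Model and GelMA overlapped, and every PMLGH library lay above both. Abca1 had a log2 fold change of 0.96 ± 0.11 in PMLGH against Model, 0.06 ± 0.11 in GelMA against Model and 0.90 ± 0.11 in PMLGH against GelMA. Only 4.27% of the difference in CPM between PMLGH and Model was there in GelMA. The GelMA value was -0.06 without Model 5 and -0.02 without GelMA 4.

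Abcg1, the partner exporter, moved less and in smaller steps. Its level was 55.6, 61.9 and 55.2 CPM in Model, 68.0, 64.9 and 69.8 in GelMA and 73.4, 76.2 and 80.1 in PMLGH, with no overlap between groups. The log2 fold change was 0.41 ± 0.06 in PMLGH against Model and 0.23 ± 0.06 in GelMA against Model. The GelMA value missed the threshold without Model 1, Model 5 or GelMA 4 (0.19 to 0.21). PMLGH against GelMA had 0.18 ± 0.06.

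Nr1h3, which encodes LXR alpha, had nearly level transcript. It was at 25.0, 27.4 and 27.3 CPM in Model, 23.7, 21.6 and 23.5 in GelMA and 26.5, 26.3 and 27.8 in PMLGH. PMLGH overlapped with Model, and the GelMA libraries lay below both. Nr1h3 had a log2 fold change of 0.02 ± 0.08 in PMLGH against Model, -0.21 ± 0.08 in GelMA against Model and 0.23 ± 0.08 in PMLGH against GelMA. With another scaling (RLE, upper-quartile) or with DESeq2, the GelMA value was -0.23 and passed the threshold. Nr1h2, the other LXR, was at 69.7 ± 2.76, 69.2 ± 5.13 and 74.6 ± 3.85 CPM in Model, GelMA and PMLGH, and passed in no comparison.

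Trem2, a surface receptor for lipids and lipoproteins that signals through the adaptor Tyrobp, stepped up like Apoe. Its level was 4.40, 3.77 and 4.11 CPM in Model, 8.32, 7.82 and 7.78 in GelMA and 13.9, 12.2 and 9.89 in PMLGH. The groups did not overlap, with the widest spread in PMLGH. Trem2 had a log2 fold change of 1.56 ± 0.14 in PMLGH against Model, 0.96 ± 0.15 in GelMA against Model and 0.59 ± 0.14 in PMLGH against GelMA. The last missed the threshold without any 1 of GelMA 2, 3 and 4 and PMLGH 2 and 3 (0.47 to 0.62). Tyrobp itself was at 207 ± 12.4, 193 ± 19.3 and 213 ± 2.36 CPM and passed in no comparison.

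Msr1, a scavenger receptor for modified lipoproteins, was at 28.2, 34.1 and 28.0 CPM in Model, 42.5, 33.5 and 34.5 in GelMA and 42.5, 54.6 and 43.2 in PMLGH. PMLGH lay above Model in every library, and GelMA overlapped with both. The log2 fold change was 0.63 ± 0.11 in PMLGH against Model, 0.29 ± 0.11 in GelMA against Model and 0.34 ± 0.11 in PMLGH against GelMA. Without Model 2, the values of GelMA against Model (0.36) and of PMLGH against GelMA (0.34) passed the threshold.

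Gpnmb, a glycoprotein of lysosomes and the cell surface, was at 256, 232 and 229 CPM in Model, 438, 444 and 459 in GelMA and 394, 467 and 425 in PMLGH. Both hydrogel groups lay above Model, and they overlapped with each other. The log2 fold change was 0.84 ± 0.07 in PMLGH against Model, 0.90 ± 0.07 in GelMA against Model and -0.06 ± 0.07 in PMLGH against GelMA. Gpnmb and Abca1 thus differed in where the step lay: between Model and GelMA for the first, between GelMA and PMLGH for the second.

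Lgals3, the lectin galectin-3 of activated macrophages, was at 145, 177 and 153 CPM in Model, 188, 170 and 178 in GelMA and 180, 201 and 214 in PMLGH. PMLGH lay above Model in every library, and GelMA overlapped with both. The log2 fold change was 0.32 ± 0.08 in PMLGH against Model, 0.17 ± 0.08 in GelMA against Model and 0.15 ± 0.08 in PMLGH against GelMA. The GelMA value against Model was 0.23 and passed without Model 2.

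Of the 10 members, 9 passed the threshold (edgeR adjusted p under 0.05 over all genes) in PMLGH against Model, all higher, and Nr1h3 did not. Of all 16816 genes tested, 27.5% passed in that comparison, 15.7% as higher and 11.9% as lower. In GelMA against Model 6 members passed, all higher, where 22.6% of all genes passed, 12.7% as higher and 9.88% as lower. These were Apoe, Apoc1, Apoc4, Abcg1, Trem2 and Gpnmb, and the number was 4 without GelMA 4 and 8 without Model 2. In PMLGH against GelMA 4 members passed, all higher, where 3.44% of all genes passed, 1.8% as higher and 1.64% as lower. These were Apoe, Apoc1, Abca1 and Trem2, and without GelMA 2, GelMA 3 or PMLGH 3 the number was 2. Both comparisons with Model share its libraries. Apoc4 is counted in both, but it was tested only because of its GelMA and PMLGH counts, so its calls against Model are no support. The median log2 fold change of the members was 0.90 in the first comparison, 0.60 in the second and 0.46 in the third, beside medians of 0.02, 0.03 and 0.00 over all genes tested.

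Libraries of the groups compared did not overlap for 9 members in PMLGH against Model, all higher, beside 39.4% of all genes (21.1% higher). In GelMA against Model this held for 6 members that were higher and for Nr1h3, which was lower, beside 36.6% of all genes (19.8% higher). In PMLGH against GelMA it held for 7 members, all higher, beside 23.7% of all genes (12.3% higher). Apoc4 is again counted in both comparisons with Model, with the same limit.

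**Figure D2:**
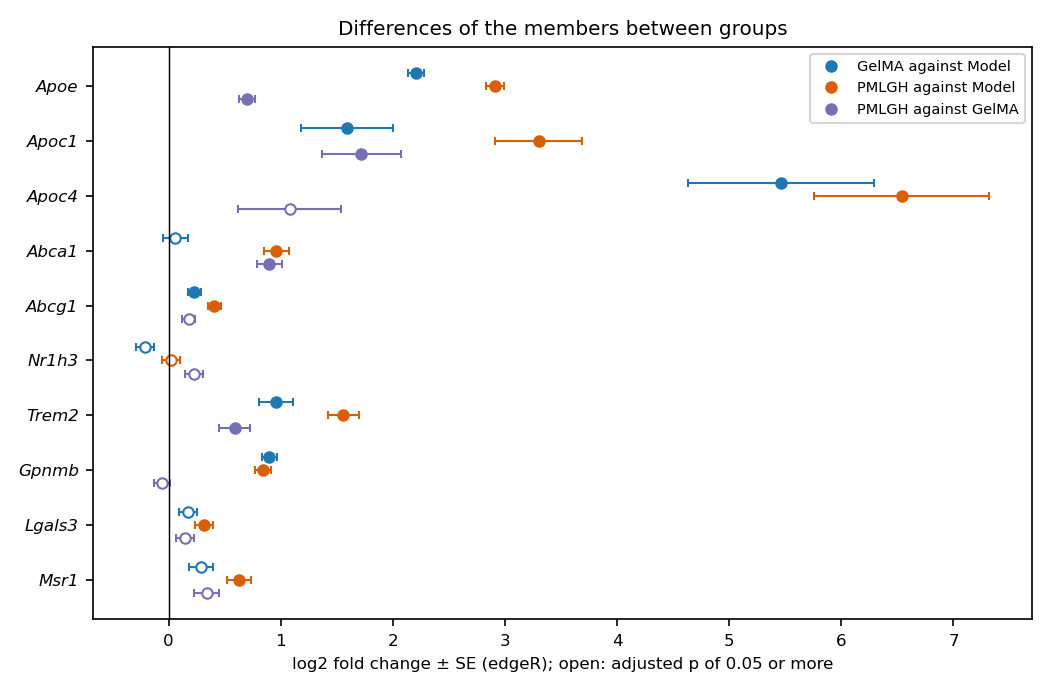
log2 fold change of each member with its SE in the 3 comparisons (horizontal axis), with filled points for an edgeR adjusted p under 0.05. The GelMA and PMLGH points against Model lie together for Gpnmb (0.90 and 0.84) and far apart for Abca1 (0.06 and 0.96), and the fitted values of Apoc4 against Model rest on 1 count in that group.

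Levels can be compared between members only per length, in FPKM. In Model the order was Lgals3 (136 ± 15.8 FPKM, SD, n = 3), Apoe (123 ± 8.34) and Gpnmb (102 ± 5.89), then Abcg1 (16.1 ± 1.19), Nr1h3 (10.8 ± 0.632), Abca1 (5.30 ± 0.913), Msr1 (4.19 ± 0.516), Trem2 (3.42 ± 0.232), Apoc1 (1.03 ± 0.662) and Apoc4 (0.0199 ± 0.0345). Lgals3 and Apoe overlapped within their spread there, as did Abca1 and Msr1. In PMLGH Apoe led with 930 ± 63.1 FPKM, ahead of Gpnmb (185 ± 15.4) and Lgals3 (172 ± 13.4), which overlapped. Nr1h3 (11.0 ± 0.245), Abca1 (10.4 ± 1.40), Apoc1 (10.3 ± 0.669) and Trem2 (10.2 ± 1.81) lay together in PMLGH, where in Model they had spanned the range from 1.03 to 10.8 FPKM.

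Within a group the members tended to be high or low in the same library. Model 2 was the highest Model library for 7 of the 10 members and the lowest for 2, Apoc1 and Trem2. GelMA 3 was the lowest GelMA library for 7 members, and PMLGH 2 the lowest PMLGH library for 7. The summed level of 16 macrophage markers (among them Adgre1, Csf1r, Cd68 and C1qa) was highest or lowest in the same libraries, with 2060 CPM in Model 2 against 1670 and 1700 in Model 1 and 5. It was 1850 CPM in GelMA 3 against 1950 in both GelMA 2 and 4, and 2210 in PMLGH 2 against 2360 and 2400 in PMLGH 3 and 4. This was not particular to macrophage markers. Neutrophil markers also summed highest in Model 2 (13800 CPM against 10400 and 11200) and lowest in PMLGH 2 (12000 against 14100 and 15500), though lowest in GelMA 4 (12000). Osteoclast markers went the other way in the hydrogel groups, highest in GelMA 3 (2970) and PMLGH 2 (3790).

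Macrophage markers also moved with the groups. Of the 16, 13 rose in PMLGH against Model (median log2 fold change 0.48), while 5 rose and 1 fell in GelMA against Model (0.19) and 6 rose in PMLGH against GelMA (0.28). Their summed level ranged from 1670 to 2060 CPM in Model, 1850 to 1950 in GelMA and 2210 to 2400 in PMLGH, and no marker was at 0. Adgre1, the macrophage surface protein F4/80, rose by 1.11 ± 0.10 on the log2 scale in PMLGH against Model (edgeR adjusted p = 2.3e-06). Of 10 osteoclast markers measured, 8 rose in PMLGH against Model and 5 in GelMA against Model. In PMLGH against GelMA none of them rose and 1, Calcr, fell. The 10 summed to 1860 to 2330, 2820 to 2970 and 3200 to 3790 CPM in Model, GelMA and PMLGH. Skeletal muscle markers summed to 524 to 795 CPM in Model, 2570 to 3100 in GelMA and 866 to 1220 in PMLGH. Of these, 10 of 10 rose in GelMA against Model and fell in PMLGH against GelMA, and 8 of 10 rose in PMLGH against Model (median 0.6). Of the liver markers, Apoa2 was at 0 and Alb, Fgb, Fga and Apoh had group means below 0.1 CPM, while the sum of all 9 was 1700 to 2620 CPM in Model, 2100 to 2350 in GelMA and 2140 to 2720 in PMLGH. Nearly all of that sum was Tf, transferrin, at 2055 ± 491, 2231 ± 130 and 2443 ± 294 CPM, which passed in no comparison. Ahsg, fetuin-A, had 74 counts over the Model libraries, 60 in GelMA and 9 in PMLGH, and fell by 3.07 ± 0.70 on the log2 scale in PMLGH against Model (edgeR adjusted p = 0.0041).

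The summed level of fibroblast and periosteum markers moved in the order of Apoe. The sum was 1250 to 1420 CPM in Model, 2850 to 3190 in GelMA and 4050 to 4680 in PMLGH, without overlap. Against Model these markers moved by more than those of macrophages. All 8 rose against Model in both hydrogel groups (median log2 fold change 0.86 in PMLGH and 0.82 in GelMA). In PMLGH against GelMA 3 rose, and their median of 0.14 was below that of the macrophage markers (0.28). Osteoblast and osteocyte markers summed to 15000 to 18700 CPM in Model, 30700 to 34300 in GelMA and 33400 to 38600 in PMLGH. Most of that sum was Col1a1 and Col1a2, at means of 9734 and 5362 CPM in Model. Of the 11 markers, 8 rose in PMLGH and 11 in GelMA against Model. In PMLGH against GelMA none rose and 3 fell, Dmp1, Mepe and Sost. The part of macrophage, osteoclast, muscle, fibroblast, periosteum and osteoblast RNA in the differences of the members was not tested.

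Set against the summed FPKM of the 16 macrophage markers in the same library, with the Model mean as 1, the members differed among themselves. These ratios are descriptions without a test. Apoe was at 4.57 ± 0.23 in GelMA (SD, n = 3) and 6.02 ± 0.46 in PMLGH, Apoc1 at 2.87 ± 1.0 and 7.69 ± 0.54, Trem2 at 1.92 ± 0.076 and 2.35 ± 0.47, and Gpnmb at 1.85 ± 0.085 and 1.43 ± 0.11. Abca1 was at 1.04 ± 0.11 in GelMA and 1.57 ± 0.21 in PMLGH. Abcg1 (1.16 ± 0.021 and 1.06 ± 0.015), Lgals3 (1.12 ± 0.030 and 1.00 ± 0.057) and Msr1 (1.22 ± 0.13 and 1.25 ± 0.18) departed less from the Model ratio. Each of their libraries still lay above the Model libraries, except those of Lgals3 in PMLGH, which overlapped with them. Nr1h3 lay below the Model libraries, at 0.854 ± 0.0091 and 0.808 ± 0.013. Abundant markers weigh most in the summed FPKM: in Model, C1qa was at 185 FPKM, C1qc at 175, C1qb at 139 and Adgre1 at 10.5. In PMLGH against Model, Adgre1 had a log2 fold change of 1.11. That was above those of Abca1 (0.96), Gpnmb (0.84) and Msr1 (0.63) and below those of Apoe (2.91), Apoc1 (3.30) and Trem2 (1.56). The ratios thus depend on the markers chosen.

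Against the summed osteoclast markers the ratios were lower. Apoe was at 3.32 ± 0.31 in GelMA and 4.45 ± 0.55 in PMLGH, Trem2 at 1.40 ± 0.085 and 1.72 ± 0.14, and Gpnmb at 1.35 ± 0.040 and 1.07 ± 0.17. Abca1 was at 0.757 ± 0.059 and 1.17 ± 0.22, and its PMLGH libraries (0.937 to 1.38) overlapped with those of Model (0.905 to 1.09). In PMLGH, Msr1 was at 0.925 ± 0.18, Abcg1 at 0.791 ± 0.11, Lgals3 at 0.746 ± 0.14 and Nr1h3 at 0.597 ± 0.075.

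**Figure D3:**
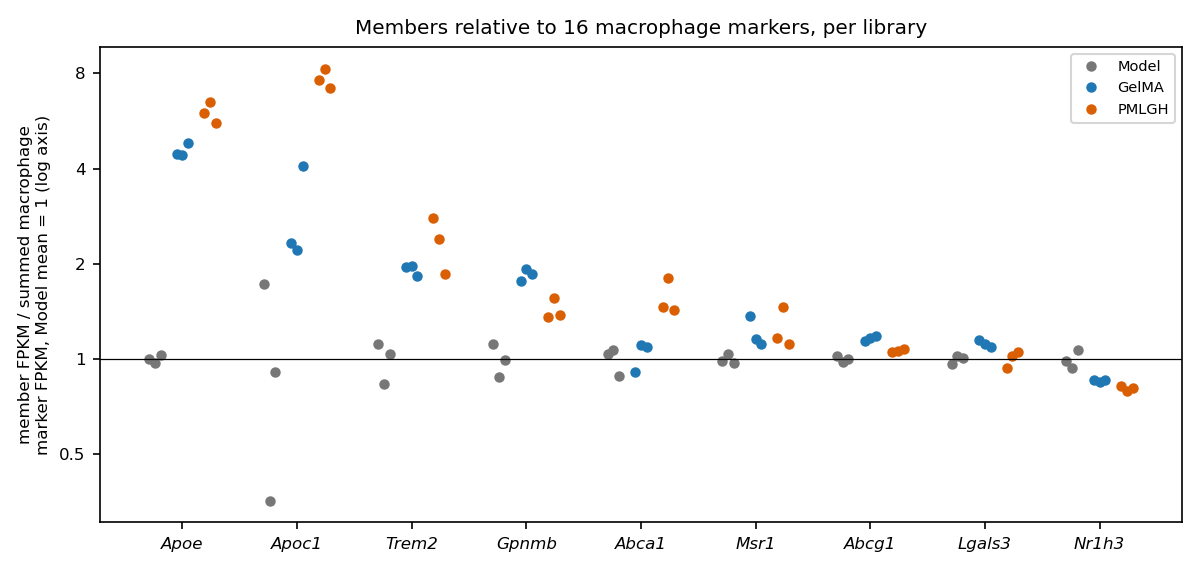
FPKM of each member but Apoc4 divided by the summed FPKM of 16 macrophage markers in the same library, relative to the Model mean (log axis), with 1 point per library. Apoe lies between 4.41 and 4.83 in GelMA and 5.57 and 6.48 in PMLGH, while Abcg1 lies between 1.05 and 1.18 in both.

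The other genes of cholesterol handling were taken in 10 lists of 153 symbols, of which 138 were tested. In PMLGH against Model 39 rose and 8 fell, or 34.1% of those tested against 27.5% of all genes, with a median log2 fold change of 0.11. In GelMA against Model 22 rose and 10 fell, 23.2% against 22.6% of all genes, with a median of 0.05. In PMLGH against GelMA 12 passed, all higher, 8.70% against 3.44% of all genes, with a median of 0.07. With the Model libraries left out of the fit, 23 passed there, but of all genes too more passed, 1059 of the 16492 tested in that fit.

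Among the partners of LXR and its other known targets, 5 of 15 tested rose and 2 fell in PMLGH against Model (median 0.14). Pltp, the phospholipid transfer protein that remodels high-density lipoprotein, stepped up over the groups like Apoe. It was at 66.7, 67.7 and 59.5 CPM in Model, 99.9, 97.2 and 105.5 in GelMA and 127, 135 and 122 in PMLGH, with no overlap. It rose by 0.98 ± 0.06 in PMLGH against Model (edgeR adjusted p = 5.2e-08) and by 0.34 ± 0.06 in PMLGH against GelMA (adjusted p = 0.0062). Smpdl3a, a phosphodiesterase that LXR induces in human macrophages, followed the pattern of Abca1, with 123 ± 6.95, 132 ± 9.63 and 176 ± 15.1 CPM in Model, GelMA and PMLGH. It rose by 0.52 ± 0.07 in PMLGH against Model (edgeR adjusted p = 1.1e-04) and by 0.42 ± 0.07 in PMLGH against GelMA (adjusted p = 0.0037). Scd, the desaturase that makes oleate, rose in both hydrogel groups against Model, by 0.98 ± 0.14 in PMLGH and 1.07 ± 0.14 in GelMA. Srebf1, the factor of fatty acid synthesis, and Mylip, the ligase that degrades the LDL receptor, are LXR targets that did not pass, with -0.02 ± 0.07 and -0.01 ± 0.06 in PMLGH against Model.

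Scavenger and lipoprotein receptors other than Msr1 rose as 10 of 16 tested in PMLGH against Model and 7 of 16 in GelMA against Model (edgeR, medians 0.43 and 0.19). None fell in edgeR, while DESeq2 called 1 lower in each. Cxcl16, a membrane-bound chemokine that also binds oxidised lipoprotein, was at 10.4 ± 1.16 CPM in Model, 29.1 ± 2.62 in GelMA and 45.9 ± 4.57 in PMLGH. It rose by 2.14 ± 0.11 in PMLGH against Model (edgeR adjusted p = 1.9e-09) and by 0.66 ± 0.10 in PMLGH against GelMA (adjusted p = 0.0011). Scarb2, a receptor of the lysosome membrane, rose by 0.58 ± 0.06 and 0.42 ± 0.06 in the same comparisons. Scara3, a scavenger receptor, rose by 0.53 ± 0.07 in PMLGH and 0.44 ± 0.07 in GelMA against Model. Cd36, the fatty acid and lipoprotein receptor, and Scarb1, the receptor of high-density lipoprotein, did not pass, with -0.10 ± 0.11 and 0.01 ± 0.06 in PMLGH against Model.

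Of the genes that free cholesterol in the lysosome, esterify it or store it, 8 of 17 tested rose in PMLGH against Model and none fell in edgeR (median 0.28), while DESeq2 called 8 higher and 1 lower and at an unadjusted p under 0.05 edgeR had 11 higher and 2 lower. At the adjusted threshold 1 of 17 rose in GelMA against Model (median 0.13). That one was Cyp27a1, the sterol 27-hydroxylase of mitochondria, whose value of 0.75 ± 0.21 missed the threshold without Model 5 or GelMA 4 (0.56 to 0.60). Plin2, the coat protein of lipid droplets, shared the pattern of Abca1. It was at 108, 107 and 100 CPM in Model, 105, 90.6 and 106 in GelMA and 155, 157 and 150 in PMLGH, so that Model and GelMA overlapped and PMLGH lay above both. It rose by 0.56 ± 0.06 in PMLGH against Model (edgeR adjusted p = 1.7e-05) and by 0.62 ± 0.06 in PMLGH against GelMA (adjusted p = 5.6e-05). Lamp2, a lysosome membrane protein, rose by 0.31 ± 0.06 and Lipa, the acid lipase of the lysosome, by 0.22 ± 0.05 in PMLGH against Model.

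Of the genes of cholesterol synthesis and its SREBP control, 5 of 26 tested rose in PMLGH against Model and none fell (median 0.10), and in GelMA against Model 2 of 26 rose (median 0.01; 1 with DESeq2). Insig1, the sterol-sensing brake on SREBP processing, rose by 0.36 ± 0.06 in PMLGH against Model (edgeR adjusted p = 5.3e-04). It was the 1 gene of the list that passed in PMLGH against GelMA (0.28 ± 0.06), and did not pass there without any 1 of GelMA 2, 3 and 4 and PMLGH 2 and 3 (0.26 to 0.28). Lss, which closes the sterol ring, rose by 0.40 ± 0.08 in PMLGH and 0.46 ± 0.08 in GelMA against Model.

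Of the TREM2 signalling and lipid-associated macrophage genes, 10 of 26 rose and 2 fell in PMLGH against Model (median 0.15), and 7 rose and 2 fell in GelMA against Model (edgeR, median 0.08), where DESeq2 called 4 higher and 2 lower. Ctsl, a lysosomal protease, stepped up, with 0.72 ± 0.06 in PMLGH against Model (edgeR adjusted p = 9.7e-07) and 0.38 ± 0.06 in PMLGH against GelMA (adjusted p = 0.0024). Mmp12, the macrophage elastase, rose by 1.19 ± 0.17 in both hydrogel groups against Model. Fabp4, the fatty acid carrier of adipocytes and macrophages, fell by 0.34 ± 0.08 in PMLGH and by 0.67 ± 0.08 in GelMA against Model. Adipocyte markers summed to 710 to 954 CPM in Model, 596 to 680 in GelMA and 698 to 734 in PMLGH, and 3 of 10 fell in PMLGH and 6 of 10 in GelMA against Model. Their part in the fall of Fabp4 was not tested.

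Galectins other than Lgals3 did not move together. Lgals1, galectin-1 of stromal and immune cells, was at 85.7 ± 3.06 CPM in Model, 82.0 ± 2.81 in GelMA and 118 ± 8.17 in PMLGH. It rose by 0.47 ± 0.06 in PMLGH against Model (edgeR adjusted p = 5.5e-05) and by 0.53 ± 0.06 in PMLGH against GelMA (adjusted p = 1.4e-04), the pattern of Abca1 and Plin2. Lgals5, a galectin of rat red cells whose sequence is close to that of Lgals9 so that its count is uncertain, fell by 0.49 ± 0.12 in PMLGH and by 0.66 ± 0.12 in GelMA against Model, where all 8 erythroid markers fell in both comparisons. The summed erythroid level was 8960 to 10900 CPM in Model, 7610 to 8110 in GelMA and 7240 to 8090 in PMLGH, and its part was not tested. Of the MiT factors and their regulators, none of 7 passed in PMLGH against Model (edgeR, or DESeq2), with 2 higher at an unadjusted p under 0.05. In GelMA against Model 1 fell, in edgeR and in DESeq2: Fnip2, a folliculin partner, fell by 0.26 ± 0.07 in edgeR (adjusted p = 0.019), and missed the threshold without Model 1, Model 5, GelMA 2 or GelMA 4 (-0.28 to -0.21). Mitf was at 13.4 ± 1.65, 13.1 ± 0.800 and 13.4 ± 0.464 CPM.

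Of 9 other ABC transporters tested, 1 rose and 2 fell in PMLGH against Model (median 0.07). Abcg4, a close relative of Abcg1, fell by 0.59 ± 0.10 in PMLGH and by 0.49 ± 0.10 in GelMA against Model, and Abca7, a close relative of Abca1, fell by 0.39 ± 0.07 in PMLGH against Model (edgeR adjusted p = 5.1e-04, 0.0025 and 5.7e-04). Among the other apolipoproteins and plasma lipid transfer genes only Pltp passed in PMLGH against Model of 9 tested, and Apoa2, Apoa4, Apoa5, Apof and Apoh, beside Apoc2, were too low to be tested. None of 9 PPAR factors and nuclear receptor corepressors passed in edgeR in PMLGH against Model (median 0.04) or in GelMA against Model (median -0.05). At an unadjusted p under 0.05 there were 1 and 3, all higher, and DESeq2 called 0 and 1.

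**Figure D4:**
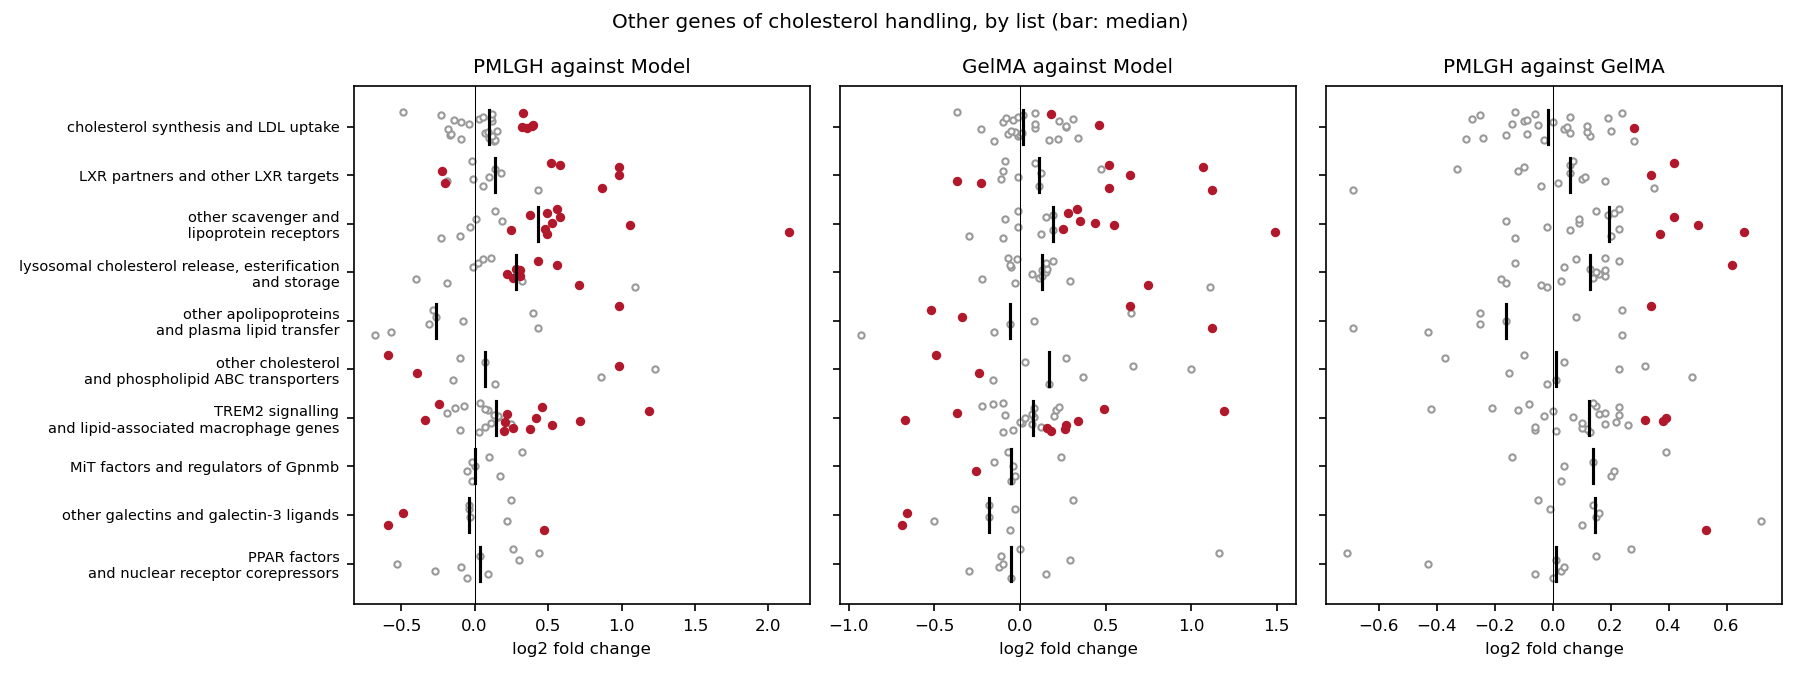
log2 fold change (horizontal axis) of each tested gene of the 10 lists, members left out, in the 3 comparisons, with filled red points for an edgeR adjusted p under 0.05 and a bar at the median. The horizontal scales differ between panels, and the scavenger receptor list has its median at 0.43, 0.19 and 0.20.

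The genes whose centred log2 CPM over the 9 libraries lay closest to the 3 members with the widest range were sought among 12864 other named genes of at least 1 CPM. For Apoe these were Nos2, the inducible nitric oxide synthase (root mean square difference 0.19 on the log2 scale), Tnn, a tenascin of the periosteum (0.21), and Postn, a matrix protein of the periosteum (0.29). For Apoc1 they were the chemokine Ccl2 (0.46), Postn (0.52) and the embryonic myosin Myh3 (0.55). For Apoc4 they were the carbonic anhydrase Ca4 (0.37) and the chemokines Cxcl13 (0.39) and Ccl7 (0.46). The Model values of Apoc4 rest on 1 count and are set mainly by the prior count of 2 added before the log, and its nearest genes depend on that. Ca4 and Ccl7 were also low in Model, at a mean log2 CPM of -2.67 and -2.54, while Cxcl13 was at 2.34. All of these are compared over the same 9 libraries in 3 groups, so the likeness is mainly that of the 3 group levels.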

How the data were processed

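RNA of 9 rat tibiae libraries was measured by sequencing. The authors deposited raw counts per gene and FPKM, counts relative to gene length and library total, for 23768 genes. The submitters' processing notes name DESeq2 and R 3.2.0 without a role. No source used here gives the aligner, counter, build, annotation or strand, so overlapping and antisense reads cannot be told apart. Each FPKM equalled count over library total and 1 length per gene (relative tolerance 1e-04) in all 22798 genes with counts, so FPKM served only to compare genes. Counts were tested with edgeR 4.0.16 in R 4.3.3: filterByExpr (16816 genes kept), TMM scaling, a quasi-likelihood fit of 3 group means to 9 libraries (6 residual degrees of freedom, common coefficient of variation 10.1%), two-sided, Benjamini-Hochberg adjusted over all genes tested, with adjusted p under 0.05 passing. Levels are CPM at TMM-adjusted totals, and the SE is the log2 fold change divided by the square root of F. The fit was checked on simulated counts. No library was a copy of another. Replicate numbers 2, 3 and 4 are shared by GelMA and PMLGH, but same-numbered libraries did not deviate together (correlations 0.014, 0.027 and -0.008), so the numbers were not used to pair them.

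The members, the 10 pathway and 11 marker lists and the tests were chosen with earlier results of these data known. Of 269 symbols, 266 were in the table, and 3 were not analysed here. Pathway genes were named by a rule: per list, the 2 passing genes of smallest p and at least 1 CPM in each comparison, plus a fixed set of 16, of which 1 is not reported here. Alternatives were RLE and upper-quartile scaling, no filter, a robust spread, DESeq2 1.42.0, the 6 libraries compared alone, each library left out, and the replicate block.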

Additional observations from a re-analysis of the deposited data

How the results depend on the processing

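The members' calls in PMLGH against Model kept their number, 9, under every alternative run, and in GelMA against Model the number was 4 to 8. Of 460 values of members under alternatives, 432 kept direction and side of the threshold, 13 lost the threshold, 7 gained it and 8 changed sign. The sign changes were Nr1h3 in PMLGH against Model (-0.02 under upper-quartile scaling, -0.01 without a filter, -0.03 to 0.03 with a library left out) and Abca1 in GelMA against Model (-0.06 to 0.16 with a library left out). Of the other named genes, Scarb1 in PMLGH against Model was -0.01 under RLE, DESeq2 and the 6 libraries alone, -0.03 under upper-quartile scaling, -0.02 without a filter and -0.06 to 0.04 with a library left out. Leaving out a library also gave -0.24 to 0.04 for Cd36, -0.07 to 0.02 for Mylip and -0.01 to 0.05 for Tyrobp.

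Counts in PMLGH against GelMA depended on the Model libraries in the fit: 578 genes passed (303 higher, 275 lower) and 12 pathway genes. With the 6 libraries compared alone these were 1059 (590 higher, 469 lower) and 23. With the replicate block on those 6 libraries, whose numbers do not pair them, they were 1037 (577 higher, 460 lower) and 20, and the members' number stayed at 4. Higher calls were 455 without a filter and 460 with DESeq2. The cause was not tested. With a library left out, the numbers in PMLGH against GelMA were 303 to 1050 genes (143 to 586 higher, 144 to 464 lower), 2 to 5 members and 8 to 22 pathway genes, lowest without PMLGH 3 for genes and highest without Model 2. In GelMA against Model they were 1035 to 2468 genes lower and 19 to 49 pathway genes, and in PMLGH against Model 1268 to 2795 genes lower. Depth limits Apoc4 and Apoc1 in Model, with 1 and 50 counts over 3 libraries.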
